A study of Mus musculus with 12 samples.

Results

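Potassium channel genes were examined in mice of 3 ages, in the ventral tegmental area (VTA) of the midbrain, where dopaminergic neurons lie among other neurons and glia. The genes were all those whose symbol starts with Kcn and that a probe set of the array names as its only gene, apart from the G protein-activated channel genes Kcnj3, Kcnj5, Kcnj6 and Kcnj9. This rule uses names and no measured value, and it gave 80 genes with 152 probe sets, among 18193 genes and 45037 probe sets tested in all. A probe set is a group of short probes that read out 1 stretch of a transcript, so a gene can have several, and 42 of the 80 genes did. All mice were wild type of the C57BL/6 strain. They were young (2 months), middle-aged (10 months) or late-middle-aged (18 months), and each age had 4 arrays, each made from the RNA of 5 pooled mice. Whole VTA was dissected by hand, so an array reports on all cell types of the region together.

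Potassium channels let potassium ions leave or enter the cell and so set the resting potential, the shape of the action potential and the rate of firing. Voltage-gated pore subunits (Kcna, Kcnc, Kcnd, Kcnh, Kcnq) open on depolarization, and silent subunits (Kcnf, Kcng, Kcns, Kcnv) carry no current alone but modify other voltage-gated subunits. Auxiliary subunits (Kcnab, Kcne, Kcnip, Kcnmb) tune gating and transport to the membrane, whereas other channels open on internal calcium or sodium (Kcnma, Kcnn, Kcnt), conduct mainly inward (Kcnj) or carry the background leak (Kcnk). Kcnu, known from sperm, was only counted together with the calcium- and sodium-activated channels. In dopaminergic neurons, Kcnd3 channels with their Kcnip partners and Kcnn3 channels are known to set the pace of spontaneous firing.

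Values are log2 expression values, and changes are log2 differences between age means with their standard error (SE) from limma, fitted across all probe sets. Calls required a change of over 1.3-fold together with an adjusted p below 0.05. Young arrays 3 and 4 were nearly the same (r of 0.998 over probe sets, where the 17 other same-age pairs gave 0.967 to 0.996). As they varied less than replicates did elsewhere, they were counted as 1 sample, the third young value below. This left n = 3 at 2 months and n = 4 at 10 and at 18 months. The defining markers of dopaminergic neurons were all measured on these arrays, with a mean level of 12.1 to 12.3 at 2 months and 12.4 to 12.6 at 18 months. Some control measures moved with age. For Actb and Gapdh, the signal at the 3′ end exceeded that at the 5′ end by 3.47 ± 0.17 (SD, n = 3) in young samples, by 2.15 ± 0.34 (SD, n = 4) in middle-aged and by 1.98 ± 0.24 (SD, n = 4) in late-middle-aged ones (18 against 2 months, exact two-sided permutation p = 0.0286, the smallest possible, adjusted p = 0.0429 over 9 tests). Such a gap can reflect how intact the RNA was as well as how evenly it was copied into label, and its source was not tested. Spiked-in poly-A RNAs were higher at 18 than at 2 months by 0.73, with the same permutation p and adjusted p. They were also higher at 10 than at 2 months by 0.28 and at 18 than at 10 months by 0.45, again with that p and adjusted p.

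Between 2 and 18 months, 13 of the 152 probe sets of potassium channel genes were called, 8 higher and 5 lower (7 and 7 with quantile normalization). The share of 8.55% was near the 7.46% called among all probe sets. Probe sets called higher made up 5.26% (all probe sets 4.55%) and those called lower 3.29% (all probe sets 2.91%). The calls fell on 10 genes. The 8 probe sets called higher, of Kcns3, Kcnip4, Kcnip1, Kcnab1 and Kcnk13, rose by 1.79- to 3.96-fold, and the 5 called lower, 1 each of Kcnd2, Kcns2, Kcnma1, Kcnq5 and Kcnh1, fell by 1.35- to 2.34-fold. A called probe set does not stand for its gene, since brighter probe sets of Kcnd2 and Kcnma1 had positive changes without a call. The median change over the 152 probe sets was −0.06, as over all probe sets (−0.06). In a whole tissue, more or fewer cells of a type and more or less RNA per cell cannot be told apart.

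**Figure D1:**
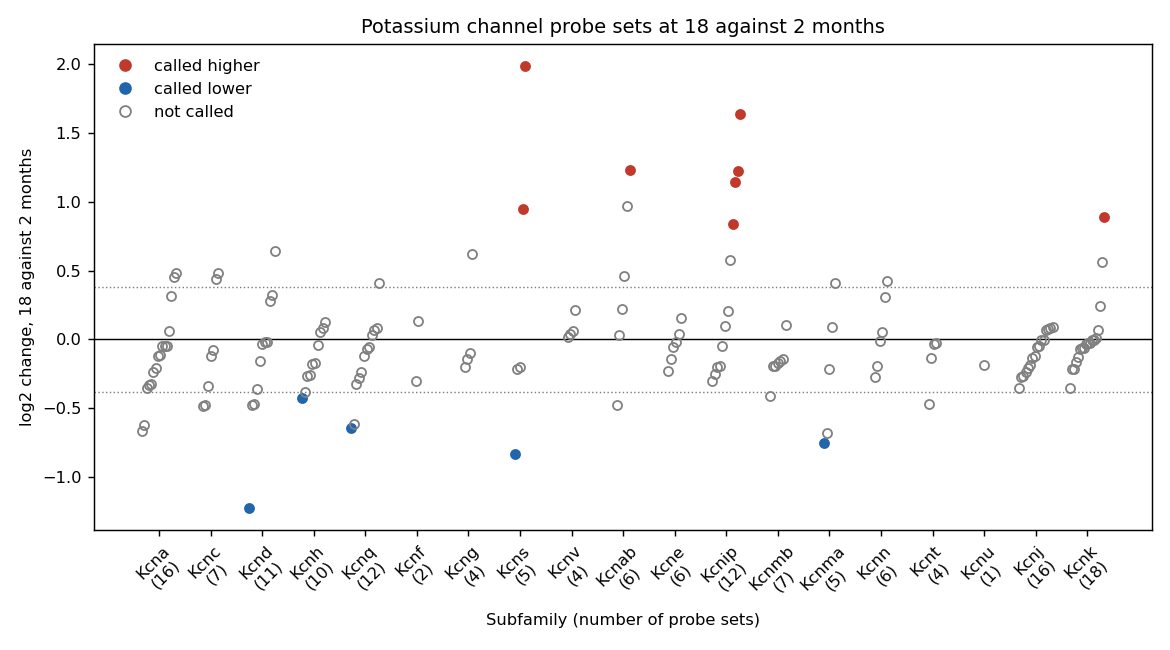
Log2 change at 18 against 2 months of each of the 152 probe sets of potassium channel genes, by subfamily with its number of probe sets. Filled points are probe sets called higher (8) or lower (5), open points were not called, and dotted lines mark a 1.3-fold change. Calls higher lie in Kcns, Kcnab, Kcnip and Kcnk and calls lower in Kcnd, Kcnh, Kcnq, Kcns and Kcnma.

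Shares called by group are given beside the 7.46% called among all probe sets. Auxiliary subunits held 5 of the 8 calls higher, on 3 genes, and none of the calls lower (17.2% of 29 probe sets, 15 genes, median change 0.03). Among voltage-gated pore subunits 3 of 50 probe sets were called, all lower (6.0%, 22 genes, median −0.12). Silent subunits had 2 calls higher and 1 lower among 15 probe sets (20.0%, 9 genes, median 0.02). Calcium- and sodium-activated channels, counted with Kcnu1, had 1 lower among 16 (6.25%, 8 genes, median −0.08). Two-pore channels had 1 higher among 18 (5.56%, 12 genes, median −0.03). Inward rectifiers (16 probe sets, 11 genes) and the non-coding transcripts Kcnq1ot1, Kcnmb4os1 and Kcnmb4os2 (8 probe sets) had none. A difference between these groups was not tested.

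RefSeq promoter sequence (GRCm38.p6) was given for 9 of the 10 called genes, all but Kcns2, at 16 transcription starts. The 100 bases before a start are shown for the most upstream start listed of the 3 genes whose probe sets rose most and of Kcnd2, whose probe set 1422834_at fell most while its brightest probe set had a positive change (0.64, not called). A GC box (GGGCGG or CCGCCC) is in capitals. They lie at chr12:11150843-11150942 (Kcns3, minus strand), chr5:49285660-49285759 (Kcnip4, minus strand), chr3:64949112-64949211 (Kcnab1, plus strand) and chr6:21215246-21215345 (Kcnd2, plus strand).
Kcns3: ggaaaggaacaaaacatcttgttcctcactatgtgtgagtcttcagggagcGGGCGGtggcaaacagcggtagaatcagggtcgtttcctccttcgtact
Kcnip4: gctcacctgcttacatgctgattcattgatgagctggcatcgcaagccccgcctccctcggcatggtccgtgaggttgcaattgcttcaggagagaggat
Kcnab1: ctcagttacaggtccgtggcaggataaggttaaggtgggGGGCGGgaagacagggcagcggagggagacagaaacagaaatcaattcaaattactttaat
Kcnd2: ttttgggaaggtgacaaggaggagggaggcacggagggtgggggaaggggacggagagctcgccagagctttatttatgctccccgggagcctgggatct
A GC box stood in 4 of 11 starts of the genes with a probe set called higher and in 2 of 5 of those with 1 called lower, beside 33.3% of 84 starts of the potassium channel genes and 24.7% of all 32851 promoters. Of the other motifs searched on both strands, CCAAT (18.9% of all promoters), TATAAA (5.56%) and TGACGTCA (1.15%) were in none of the 16 windows and CACGTG (3.17%) was in 1, a downstream start of Kcnab1. These matches describe letters in a window and show no binding.

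The largest change was in a silent subunit. Kcns3, whose upstream promoter window holds a GC box, encodes Kv9.3, which forms no channel of its own and joins subunits of the Kcnb family. Its probe set 1457799_at measured 5.60, 6.35 and 6.21 in the young samples, 8.10, 6.82, 7.94 and 7.46 in the middle-aged samples, and 7.99, 8.14, 7.99 and 8.04 in the late-middle-aged samples. All later samples lay above all young ones, and the 4 late-middle-aged samples lay close together at the upper end of the middle-aged range. The rise was 3.96-fold at 18 months (1.98 ± 0.27 SE, limma adjusted p = 0.00455) and 2.88-fold at 10 months (1.53 ± 0.27, adjusted p = 0.0349). The second probe set, 1445519_at, measured 8.15, 8.53 and 8.52, then 9.23, 8.55, 9.19 and 8.82, then 9.52, 9.38, 9.25 and 9.24. It showed the same direction with a smaller rise of 1.93-fold at 18 months (0.95 ± 0.17, adjusted p = 0.0107), and it was not called at 10 months (0.55 ± 0.17, adjusted p = 0.137).

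Kcns2, which encodes the related silent subunit Kv9.2, moved the other way. Probe set 1457325_at measured 9.08, 9.50 and 9.01 in the young samples, 8.58, 8.61, 8.40 and 8.59 at 10 months, and 8.23, 8.28, 8.49 and 8.46 at 18 months. Neither later age overlapped with the young samples. Kcns2 fell by 0.83 ± 0.13 SE at 18 months (1.78-fold, limma adjusted p = 0.00662) and by 0.65 ± 0.13 at 10 months (adjusted p = 0.0461). Its other probe set was at or below the lower quartile of all probe set levels (4.57) and was not called (−0.22 ± 0.11, adjusted p = 0.247). The remaining silent subunits were not called. Of these, Kcng4 (0.62 ± 0.36, adjusted p = 0.325), Kcnf1 (1454768_at, 0.13 ± 0.39, adjusted p = 0.874) and Kcnv1 (1439333_at, 0.02 ± 0.12, adjusted p = 0.944) are given by their brightest probe sets.

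**Figure D2:**
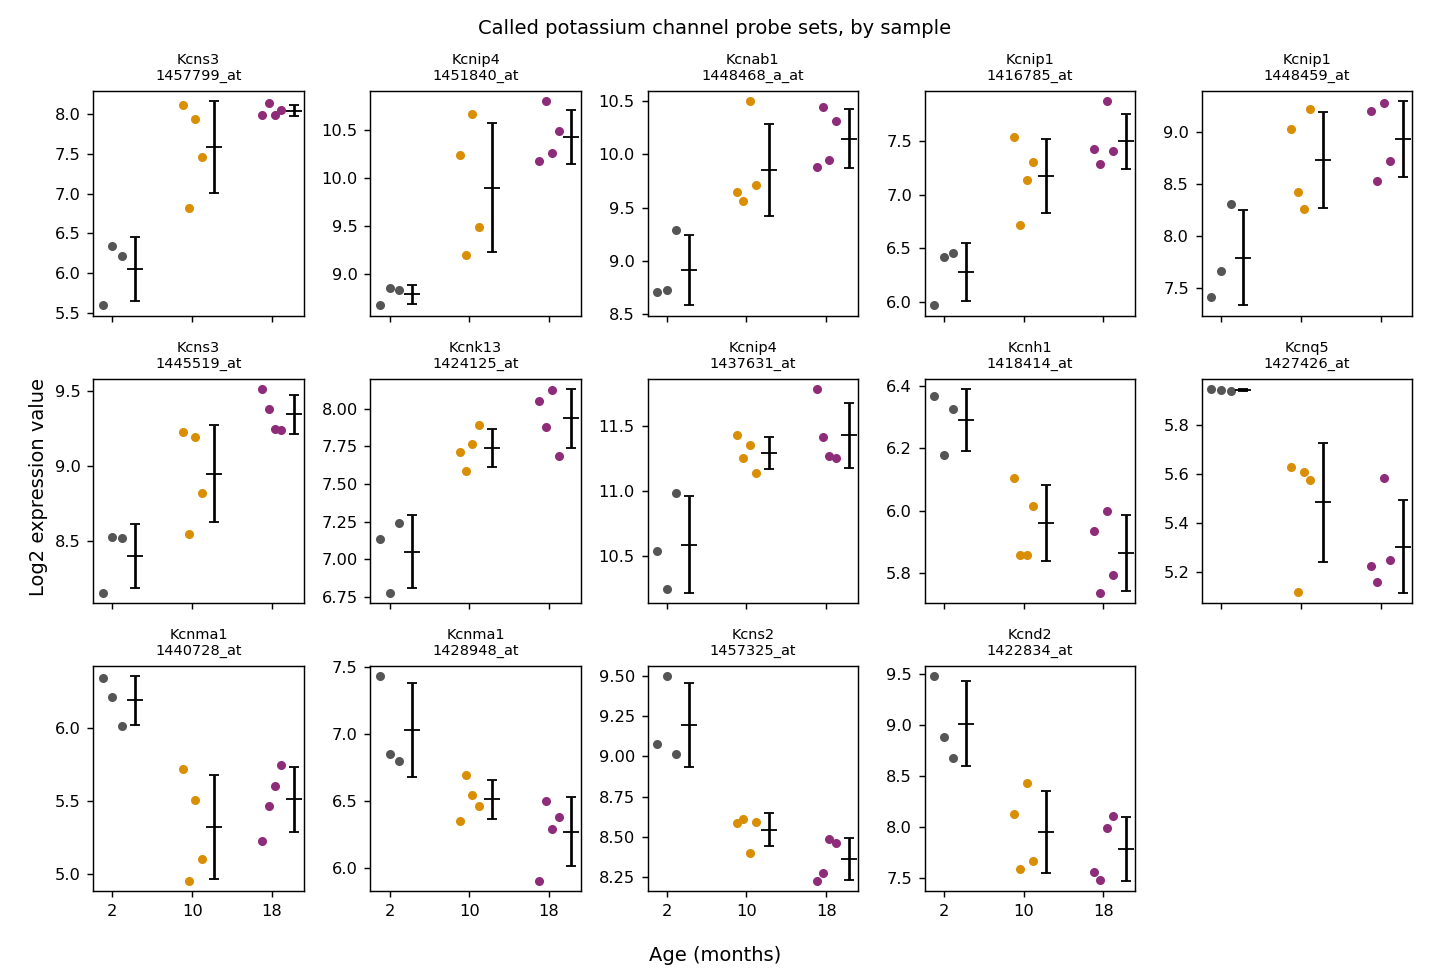
Log2 expression values of the 14 probe sets called at 18 or at 10 against 2 months, by age in months, each panel on its own scale that does not start at 0. Points are samples (n = 3, 4 and 4) and bars show the mean and SD; in each of the 13 probe sets called at 18 months the late-middle-aged samples do not overlap with the young ones.

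The Kv4 channel complex held calls in both directions. Kcnip1 and Kcnip4 encode KChIP proteins, which bind calcium and bring Kcnd subunits to the membrane. The Kcnip4 probe set 1451840_at measured 8.68, 8.86 and 8.84 at 2 months, 10.23, 9.20, 10.66 and 9.49 at 10 months, and 10.17, 10.80, 10.26 and 10.48 at 18 months. This was a rise of 3.11-fold from 2 to 18 months (1.64 ± 0.29 SE, limma adjusted p = 0.0105), with young samples close together and middle-aged samples spread widely above them. Probe set 1437631_at of the same gene measured 10.54, 10.25 and 10.98, then 11.43, 11.25, 11.35 and 11.14, then 11.78, 11.41, 11.27 and 11.25, a rise of 1.79-fold (0.84 ± 0.18, adjusted p = 0.019). The third probe set of Kcnip4, 1450370_a_at, varied between 7.31 and 8.91 with no separation of the ages (0.21 ± 0.36, adjusted p = 0.782).

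For Kcnip1, probe set 1416785_at measured 5.97, 6.42 and 6.45 in young samples, 7.54, 6.72, 7.14 and 7.30 in middle-aged samples, and 7.43, 7.29, 7.87 and 7.41 in late-middle-aged samples. It rose 2.33-fold (1.22 ± 0.20 SE, limma adjusted p = 0.0081) without overlap between young and later samples. Probe set 1448459_at measured 7.41, 7.67 and 8.31, then 9.03, 8.42, 8.26 and 9.23, then 9.20, 8.54, 9.29 and 8.73. It rose 2.20-fold at 18 months (1.14 ± 0.28, adjusted p = 0.034), while 1 middle-aged sample lay below the highest young one. The 2 other probe sets of Kcnip1 were not called (−0.30 ± 0.14, adjusted p = 0.229, and −0.05 ± 0.13, adjusted p = 0.875), so the 4 probe sets of this gene were of mixed sign. Kcnip3, also known as the calcium-binding transcriptional repressor DREAM, gave 0.58 ± 0.25 (1418544_at, adjusted p = 0.196), and Kcnip2 was not called.

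Kcnd2 encodes Kv4.2, a pore subunit of the fast-inactivating A-type current that KChIP proteins attach to. Probe set 1422834_at measured 9.48, 8.89 and 8.68 at 2 months, 8.13, 7.59, 8.43 and 7.67 at 10 months, and 7.57, 7.49, 7.99 and 8.12 at 18 months. All later samples lay below the young ones, a fall of 2.34-fold at 18 months (−1.23 ± 0.25 SE, limma adjusted p = 0.0162). The other probe sets of Kcnd2 did not show this. Probe set 1422835_at measured 9.87, 9.83 and 10.15, then 10.42, 9.48, 10.69 and 10.34, then 10.60, 10.45, 10.58 and 10.74, with every late-middle-aged sample above the young ones (0.64 ± 0.23, adjusted p = 0.115, not called). Probe set 1450773_at differed by 0.28 ± 0.27 (adjusted p = 0.588), and a further one lay at or below the lower quartile. The direction of Kcnd2 therefore depends on the probe set that is read. Kcnd3, which encodes Kv4.3, measured 11.99, 12.15 and 12.29 at 2 months and 12.51, 12.63, 12.26 and 12.46 at 18 months in its brightest probe set. Its samples overlapped by a small margin and it was not called (1435720_at, 0.32 ± 0.11, adjusted p = 0.109), and its 3 other probe sets had changes of the opposite sign, of −0.15 to −0.48, without a call. None of the 3 probe sets of Kcnd1 was called.

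**Figure D3:**
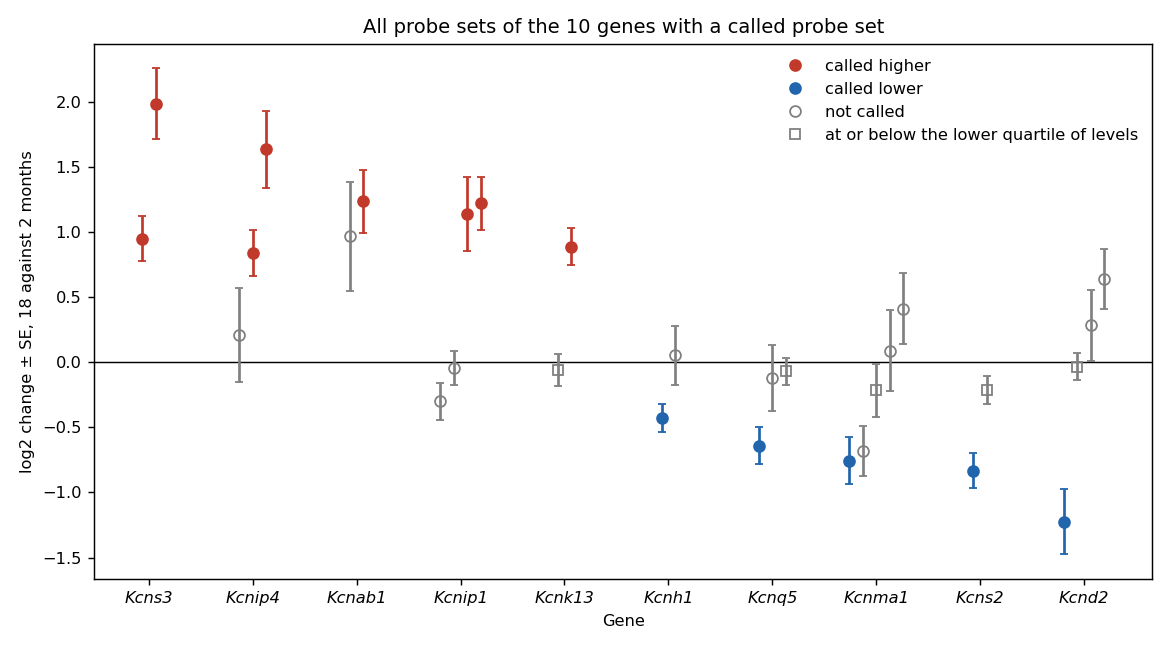
Log2 change at 18 against 2 months, with SE, of every probe set of the 10 genes with a called probe set. Filled points were called, open circles were not, and squares lie at or below the lower quartile of levels; Kcns3 alone has all of its probe sets called, and Kcnd2 ranges from −1.23 to 0.64.

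Kcnab1 encodes a cytoplasmic β subunit that speeds the inactivation of Kcna channels. Its brighter probe set, 1448468_a_at, measured 8.71, 8.73 and 9.29 in young samples, 9.65, 9.56, 10.50 and 9.71 in middle-aged samples, and 9.88, 10.44, 9.95 and 10.31 in late-middle-aged samples. It rose 2.35-fold at 18 months without overlap (1.23 ± 0.24 SE, limma adjusted p = 0.0132). The other probe set, 1454043_a_at, measured 4.87, 5.39 and 5.09, then 5.53, 4.64, 6.81 and 5.31, then 5.63, 6.54, 5.67 and 6.50, and its similar change of 0.97 ± 0.42 was not called (adjusted p = 0.187) given the wide spread at 10 months. Among the Kcna pore subunits that it joins, none of 16 probe sets of 7 genes was called. Kcna6 was nearest, with 9.53, 9.36 and 9.39 at 2 months and 8.96, 8.67, 9.01 and 8.41 at 18 months (1456954_at, −0.67 ± 0.19, adjusted p = 0.0517). Kcna4 gave −0.62 ± 0.19 (1438613_at, adjusted p = 0.0657), with 1 young sample inside the range of the late-middle-aged ones, and Kcna2, an axonal subunit, −0.12 ± 0.22 (1440759_at, adjusted p = 0.792). The remaining auxiliary subunits Kcnab2, Kcnab3, all Kcne and all Kcnmb genes were not called. Of these, Kcnmb4, the neuronal β subunit of the large-conductance calcium-activated channel, gave −0.41 ± 0.14 (1449471_at, adjusted p = 0.108) and Kcne4 −0.23 ± 0.15 (1418156_at, adjusted p = 0.407).

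Kcnq5 encodes a subunit of the M-type current, which restrains repetitive firing. Its probe set 1427426_at measured 5.95, 5.94 and 5.94 in young samples, 5.63, 5.12, 5.61 and 5.58 at 10 months, and 5.22, 5.16, 5.58 and 5.25 at 18 months. It fell by 0.64 ± 0.14 SE (1.56-fold, limma adjusted p = 0.0237), with near-equal young values above every later sample. The brighter probe set 1457587_at of this gene was not called (−0.12 ± 0.25, adjusted p = 0.823), and Kcnq3, another M-type subunit, gave 0.07 ± 0.12 (1435957_at, adjusted p = 0.774). Kcnh1 encodes an ether-à-go-go channel. Its probe set 1418414_at measured 6.37, 6.18 and 6.33, then 6.10, 5.86, 5.86 and 6.02, then 5.93, 5.73, 5.998 and 5.79, and fell by 0.43 ± 0.11 (1.35-fold, adjusted p = 0.0374), close to the fold threshold. Its other probe set gave 0.05 ± 0.22 (1435994_at, adjusted p = 0.917), and Kcnh2, of the same subfamily, −0.38 ± 0.21 (1449544_a_at, adjusted p = 0.306). In the Kcnc family of fast-spiking neurons no probe set was called. Kcnc1 measured 12.12, 11.87 and 12.02 at 2 months and 11.23, 11.38, 11.65 and 11.83 at 18 months, without overlap (1443855_at, −0.48 ± 0.15, adjusted p = 0.0731).

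Kcnma1 encodes the pore of the large-conductance calcium-activated channel, which shapes the afterhyperpolarization. Probe set 1428948_at measured 7.43, 6.85 and 6.80 at 2 months, 6.35, 6.69, 6.54 and 6.46 at 10 months, and 5.91, 6.50, 6.29 and 6.38 at 18 months, a fall of 1.69-fold (−0.76 ± 0.18 SE, limma adjusted p = 0.0279). Probe set 1440728_at measured 6.35, 6.22 and 6.02, then 5.72, 4.95, 5.51 and 5.10, then 5.23, 5.47, 5.60 and 5.75. It was called lower at 10 months (−0.87 ± 0.19, adjusted p = 0.0496) and missed the threshold at 18 months (−0.68 ± 0.19, adjusted p = 0.0501). Both probe sets were below all young samples at both later ages. The 2 brighter probe sets of Kcnma1 had positive changes without a call (1425987_a_at, 0.41 ± 0.27, adjusted p = 0.397, and 1424848_at, 0.09 ± 0.31, adjusted p = 0.898). The small-conductance channels of the Kcnn family and the sodium-activated channels of the Kcnt family were not called. Kcnn2 gave 0.42 ± 0.14 (1448927_at, adjusted p = 0.086), Kcnn3 0.31 ± 0.16 (1421632_at, adjusted p = 0.29), Kcnt1 −0.13 ± 0.16 (1458428_at, adjusted p = 0.664) and Kcnu1, a channel known from sperm, −0.19 ± 0.15 (1422838_at, adjusted p = 0.502).

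Kcnk13 encodes THIK-1, a two-pore channel that in brain is known mainly from microglia. Probe set 1424125_at measured 7.14, 6.78 and 7.24 in young samples, 7.71, 7.59, 7.77 and 7.89 at 10 months, and 8.06, 7.88, 8.13 and 7.69 at 18 months. Neither later age overlapped with the young samples, and the rise was 1.85-fold at 18 months (0.89 ± 0.14 SE, limma adjusted p = 0.00719) and 1.61-fold at 10 months (0.69 ± 0.14, adjusted p = 0.048). Its other probe set lay at or below the lower quartile. The 5 microglial markers checked had a mean level of 7.99 to 8.26 at 2 months, 8.44 to 8.66 at 10 months and 8.62 to 8.96 at 18 months, without overlap between the young and the later samples. P2ry12 (1.58 ± 0.23, adjusted p = 0.00513) and Cd68 (1.44 ± 0.29, adjusted p = 0.0153) rose, whereas Cx3cr1 (0.14 ± 0.20, adjusted p = 0.729), Csf1r (−0.18 ± 0.22, adjusted p = 0.694) and Aif1 (0.27 ± 0.25, adjusted p = 0.569) were not called. Their part in the Kcnk13 result was not tested. Kcnk1, which encodes the leak channel TWIK-1, gave 0.56 ± 0.17 (1455896_a_at, adjusted p = 0.0657) and in its brighter probe set 0.24 ± 0.19 (1448690_at, adjusted p = 0.484), and the other two-pore genes were not called.

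Inward rectifiers showed the narrowest range of changes among the groups of channel proteins, from −0.35 to 0.09, and their smallest adjusted p was 0.156. Kcnj10, which encodes Kir4.1, the channel by which astrocytes clear potassium, measured 11.63, 11.62 and 11.67 at 2 months and 11.23, 11.55, 11.57 and 11.67 at 18 months (1419601_at, −0.14 ± 0.13, adjusted p = 0.561). The 5 astrocyte markers had a mean level of 10.5 to 10.6 at 2 months, 10.6 to 10.9 at 10 months and 10.8 to 11.1 at 18 months, with every late-middle-aged sample above the young ones. None of the 5 was called (median change 0.43), and their part in the values of Kcnj10 was not tested. Kcnj11, the pore of the ATP-sensitive channel, gave −0.12 ± 0.10 (1455417_at, adjusted p = 0.517) on samples that overlapped. Ttr, the leading transcript of the choroid plexus, was not called by limma (adjusted p = 0.122). It lay at 8.29 ± 1.43 (SD, n = 3) in young samples and, without overlap, at 6.36 ± 0.64 (SD, n = 4) in late-middle-aged ones (exact permutation p = 0.0286, adjusted p = 0.0429). The other choroid plexus markers did not show this fall. Otx2 gave −0.03 ± 0.29 SE (limma adjusted p = 0.966), and Kl (−0.04 ± 0.11) and Folr1 (−0.25 ± 0.15) lay at or below the lower quartile without a call. Among channel genes known from that tissue, Kcnj13 gave −0.05 ± 0.18 (1456418_at, adjusted p = 0.904) and Kcne2 −0.02 ± 0.19 (1449421_a_at, adjusted p = 0.965). Both were dim, with mean levels of 5.37 and 4.75, below the median of all probe sets (6.16), so their small changes say little.

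Neuronal markers also differed between the ages. Their mean level was 12.03 to 12.4 at 2 months, 12.4 to 12.9 at 10 months and 12.7 to 12.9 at 18 months. Snap25 (0.97 ± 0.19 SE, limma adjusted p = 0.0134), Syt1 (0.67 ± 0.16, adjusted p = 0.0296) and Stmn2 (1.25 ± 0.23, adjusted p = 0.0118) rose and Rbfox3 fell (−0.57 ± 0.15, adjusted p = 0.0404). Of 6 dopaminergic markers Th alone was called (0.84 ± 0.14, adjusted p = 0.00735), and of 3 GABAergic markers none was. Pdgfrb fell (−0.72 ± 0.16, adjusted p = 0.023) as 1 of 3 markers of pericytes and smooth muscle, whose mean levels overlapped between 2 and 18 months (9.75 to 10.2 and 9.42 to 9.85). No marker of oligodendrocytes, endothelium, choroid plexus or meninges was called, though 2 of 4 choroid plexus and 1 of 3 endothelial markers lay at or below the lower quartile. The part of these shifts in the channel results was not tested.

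Fewer probe sets were called at 10 than at 18 months. At 10 against 2 months 4 probe sets were called (2.63%, against 1.36% of all probe sets), 2 higher (Kcns3 1457799_at and Kcnk13; all probe sets 0.837%) and 2 lower (Kcns2 and Kcnma1 1440728_at; all probe sets 0.524%). The probe sets called were not stable. Calls were 3 higher and 1 lower with arrays centred on their medians, and 4 higher and 0 lower without middle-aged array 2. These were in part other probe sets, as none of the 4 named reversed its direction under any alternative. Of the 4 named, all but that of Kcnma1 were also called at 18 months. None of the 4 calls held without young array 1 or 2, middle-aged array 1 or 4 or any late-middle-aged array. Over all probe sets the 613 calls fell to between 1 and 159 in these fits. In contrast, 7 potassium channel probe sets were called without middle-aged array 3 (3 higher, 4 lower; all probe sets 1256). Without the mean of young arrays 3 and 4 it was also 7 (4 higher, 3 lower; all probe sets 1276). Both comparisons share the young samples. From 10 to 18 months no potassium channel probe set was called (all probe sets 0.00222%), the smallest limma adjusted p was 0.847, and 7 of the 152 had an unadjusted p under 0.05. The contrast of the first interval with the second called none of these genes and no probe set of the array, with 8 of the 152 at an unadjusted p under 0.05 and a smallest adjusted p of 0.898. A difference between the intervals was thus not detectable with these samples.

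**Figure D4:**
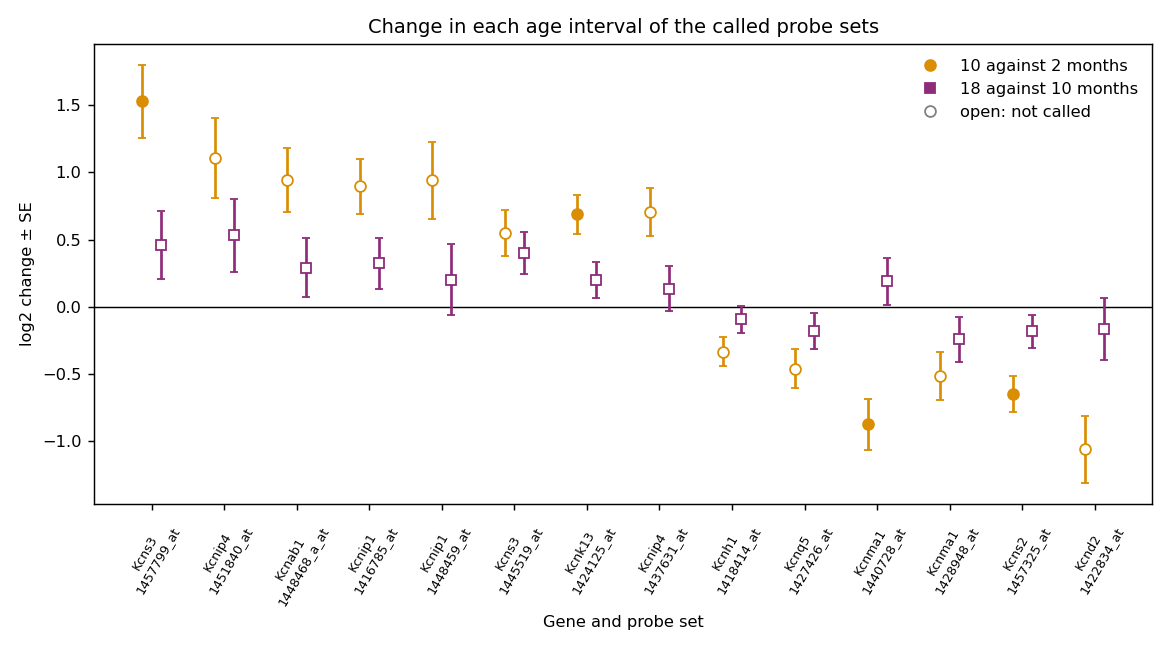
Log2 change with SE from 2 to 10 months (circles) and from 10 to 18 months (squares) of the 14 probe sets called at 18 or at 10 against 2 months. Filled symbols were called, 4 from 2 to 10 months and none from 10 to 18 months. All 14 were chosen for a change from the young samples, which enter the first interval alone, so the sizes in the 2 intervals are not to be read against each other.

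Samples of the ages were separate in a minority of probe sets, and a difference from the share on the array was not tested. Young and late-middle-aged samples did not overlap in 36 of the 152 probe sets (23.7%, all probe sets 23.6%), 15 higher (all probe sets 10.4%) and 21 lower (13.1%) at 18 months. Young and middle-aged samples did not overlap in 21 (13.8%, all probe sets 12.6%), 10 higher (6.35%) and 11 lower (6.25%). Between 10 and 18 months it was 6 (3.95%, all probe sets 2.73%), 2 higher (1.11%) and 4 lower (1.62%). Genes with several probe sets often disagreed. Of 34 genes with at least 2 probe sets above the lower quartile, 18 had changes of 1 sign at 18 months and 16 of mixed sign. For 8 genes (Kcne3, Kcnh5, Kcnj2, Kcnj15, Kcnk15, Kcnmb4os1, Kcns1 and Kcnv2) all probe sets lay at or below the lower quartile, and no call fell on the 27 probe sets there. The 70 genes without a call had changes between −0.67 and 0.62.

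The spread within an age differed widely between members, from an SD of 0.06 to 0.67, with a median of 0.20 as over all probe sets (0.20). The widest was a probe set of Kcna1, which encodes Kv1.1, an axonal subunit. Its probe set 1417416_at measured 8.80, 9.98 and 9.02 at 2 months, 9.22, 8.21, 9.76 and 8.78 at 10 months, and 8.52, 8.92, 9.29 and 10.15 at 18 months. Pools of 1 age thus differed by over 1 on the log2 scale, and the ages overlapped (−0.05 ± 0.43 SE, limma adjusted p = 0.962). In the 5 most variable genes, chosen after their values were seen, middle-aged array 3 was the highest and middle-aged array 2 the lowest of the 4 arrays at 10 months.

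**Figure D5:**
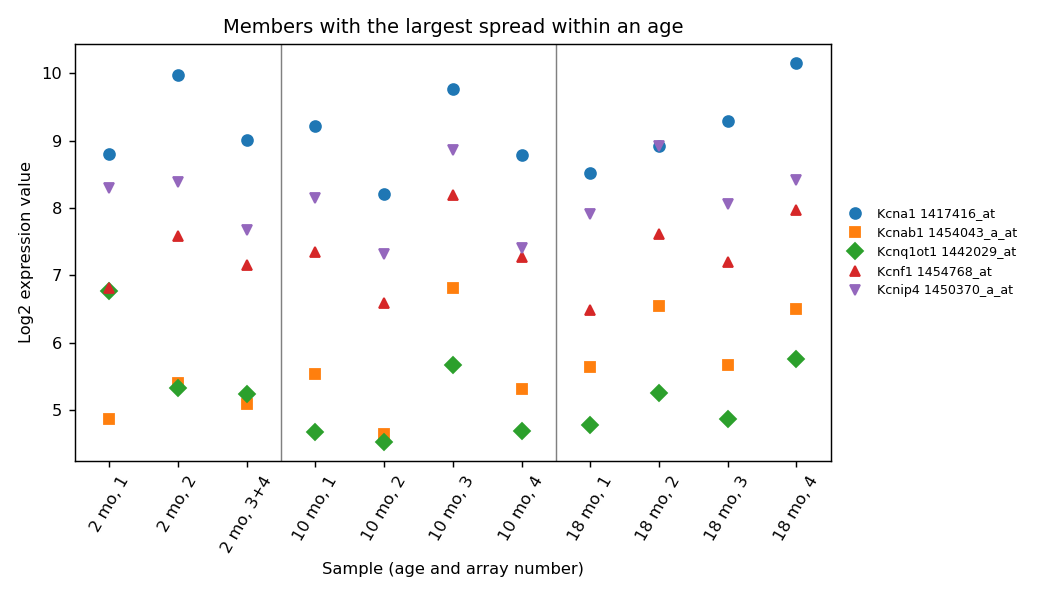
Log2 expression values in each of the 11 samples of the most variable probe set of the 5 genes with the largest spread within an age (Kcna1, Kcnab1, Kcnq1ot1, Kcnf1 and Kcnip4). Vertical lines part the ages and each symbol is 1 probe set, to be read along the samples and not against other symbols; middle-aged array 3 is above and array 2 below the other middle-aged arrays in all 5.

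Proteins that bind potassium channels or move potassium formed a list of 33 genes, of which 24 were measured with 62 probe sets. At 18 months 2 probe sets were called higher and 3 lower, 8.06% of the list beside 7.46% of all probe sets (4.55% higher, 2.91% lower), with a median change near 0 (0.00). The called partners are thus given as values and not as a result about the list. Abcc8, the sulfonylurea receptor that partners Kcnj11, rose (1457066_at, 0.69 ± 0.14 SE, limma adjusted p = 0.0177), while its brighter probe set gave 0.09 ± 0.15. Lgi1, a secreted protein that binds Adam22 and Adam23 near Kcna channels, rose (1435851_at, 0.82 ± 0.22, adjusted p = 0.0429). Adam23 fell in 1 of 3 probe sets (1447946_at, −0.62 ± 0.17, adjusted p = 0.0463), which was also called at 10 months (−0.77 ± 0.17, adjusted p = 0.0492). Amigo1, an auxiliary protein of Kcnb channels, fell in 2 of 5 (1447811_s_at, −0.89 ± 0.24, adjusted p = 0.0454, and 1459020_at, −0.52 ± 0.14, adjusted p = 0.0425). Genes named for voltage-gated sodium, calcium and HCN channels (symbols Scn, Cacna, Cacnb, Cacng and Hcn) were taken as the most alike families. Being chosen by symbol, this list also holds auxiliary subunits. It had 3 calls higher and 6 lower among 87 probe sets of 37 genes, or 10.3% beside the same 7.46% (median −0.15). A difference from the array was not tested for either list. Without young array 1 neither list had a call, while calls over all probe sets fell from 3359 to 423. Over all left-out samples the counts of the lists ran from 0 to 10 and from 0 to 13.

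Most of the calls on potassium channel genes were lost without 1 young pool, and all of them in a fit with the transcript-end measure. The loss was not particular to these genes, as calls over all probe sets fell from 3359 to 423 without young array 1. Without young array 1, 3 of the 13 probe sets remained called at 18 months, Kcns3 1457799_at (limma adjusted p = 0.0315), Kcns2 (0.033) and Kcnk13 (0.0398), and the other 10 kept their direction. The same 3 probe sets were the ones called in all 13 fits that left out an array or a sample. Kcnab1, Kcnip4 1437631_at, Kcnip1 1448459_at, Kcnq5 and Kcnh1 were also not called without young array 2. Kcnip1 1448459_at, Kcnma1, Kcnq5 and Kcnh1 each lost the call without late-middle-aged array 1 and at least 1 other late-middle-aged array, and Kcnh1, called in 5 of the 13 fits, was also lost with arrays centred on their medians and with quantile normalization. When the gap between 3′ and 5′ signal entered the fit as a covariate, no probe set of the array was called. The gap itself separated young samples (3.29 to 3.63) from middle-aged (1.69 to 2.44) and late-middle-aged ones (1.64 to 2.17) without overlap. That fit therefore cannot tell age and gap apart, and its changes are no estimates of age freed from the gap. In that fit the median SE of the 13 grew from 0.18 to 0.49, while the median change in the called direction went from 0.95 to 0.69. Single probe sets moved in both ways. Kcns3 1457799_at went from 1.98 to 0.43 ± 0.59 SE, Kcnip4 1451840_at from 1.64 to 0.53 ± 0.77, and Kcnip1 1416785_at turned to −0.12 ± 0.39, whereas the other 12 kept their direction. Kcnk13 was at 0.91 ± 0.41, near its 0.89 without the covariate. Larger negative changes, not called in that fit, were estimated for Kcnd2 (from −1.23 to −2.13 ± 0.66), Kcnq5 (from −0.64 to −1.40 ± 0.33) and Kcns2 (from −0.83 to −1.19 ± 0.36).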

How the data were processed

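VTA RNA (50 ng per pool of 5 mice) was labelled in 2 cycles and hybridized to Affymetrix mouse genome expression arrays. The authors normalized the 12 arrays with RMA and deposited log2 expression values per probe set, and the submitters' notes name limma 3.4.5. Array medians lay between 6.11 and 6.21, and the number of arrays limits precision. RMA values carry no background call, so levels at or below the lower quartile (4.57) are marked. From these values, 64 control probe sets were left out and 45037 were fitted with limma 3.58.1 (R 4.3.3; lmFit, contrasts.fit, eBayes; 1 mean per age, no covariate), with Benjamini-Hochberg adjustment over all of them and the study's thresholds (0.05, 1.3-fold). The fit was tested on simulated data. P-values measure the spread between pools.

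Probe sets were named through the platform annotation (34945 with 1 gene, 932 with several, 9160 with none). By gene number 34741 matched a RefSeq table, all 152 of the potassium channel genes among them. Named with values were genes with a call, the gene with the brightest probe set of each subfamily, the 5 uncalled genes of largest change above the median level (6.16) and called partners. Kcnj11, Kcnj13, Kcne2, Kcnn3 and Kcna1 were added, Kcna1 after its values were seen. The genes, lists and the merging of young arrays 3 and 4 were chosen with earlier results of these data known. Alternatives were separate arrays, scaling, a covariate, a level filter, eBayes options, array weights, a replicate block and left-out samples. Exact permutation tests used scipy 1.17.1.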

Additional observations from a re-analysis of the deposited data

Results flagged for a closer look

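In 4 of 84 groups of 4 samples checked, 1 sample stood far from the others, about as many as the 1 in 20 that chance gives. All but 1 of them were in middle-aged array 3. Kcnab1 (1448468_a_at) measured 10.5 there, against 9.56 to 9.71 in the other middle-aged arrays. Kcnip3 (1418544_at) measured 8.24 there, against 9.12 to 9.19. Kcns2 (1457325_at) measured 8.40 there, against 8.58 to 8.61. In middle-aged array 2, Kcnq5 (1427426_at) measured 5.12, against 5.58 to 5.63. None of these arrays enters the difference between 18 and 2 months other than through the shared spread and the RMA normalization of the 12 arrays.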

How the results depend on the processing

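At 18 against 2 months the 13 calls became 21 (10 higher, 11 lower) with the 12 arrays as separate samples, 21 (11 and 10) with array weights and 0 with the 3′ minus 5′ covariate. They became 12 (8 and 4) with arrays centred on their medians and 14 (7 and 7) with quantile normalization. Over all probe sets the 3359 calls became 4460, 5339, 0, 3466 and 3299 in the same order. Leaving out 1 array or sample gave 3 to 19 potassium channel calls (all probe sets 423 to 5326). Kcnip1 1416785_at reversed to −0.12 under the covariate and no other called probe set reversed under any alternative. At 10 against 2 months the 4 calls became 8 with separate arrays, 12 with array weights, 1 with eBayes trend and robust options, 0 with the covariate, 0 when only the ages compared were fitted and 4 (3 higher, 1 lower) with centring. Over all probe sets the 613 calls became 977, 2944, 217, 0, 0 and 703 in the same order. Without middle-aged array 2 the potassium channel calls were 4 higher and 0 lower, in part on other probe sets. Leaving out 1 array or sample gave 0 to 7 (all probe sets 1 to 1276), with 0 without young array 1 or 2, middle-aged array 1 or 4 or any late-middle-aged array. The replicate block, on separate arrays, gave 12 calls at 18 months (all probe sets 2548) and 0 at 10 months (all probe sets 3). No pairing of pools by replicate number was seen. Across ages, deviations of arrays with the same number correlated at −0.61 to 0.43 (median −0.26), and those with different numbers at −0.69 to 0.77 (median 0.10). No alternative called a potassium channel probe set at 18 against 10 months or as unequal between intervals. For the partner list the 5 calls became 3 with centring, 0 with the covariate, 3 with trend and robust options, 10 with array weights, 3 with the replicate block and 0 to 10 with a sample left out. For the list of genes named for sodium, calcium and HCN channels the 9 calls became 0 with the covariate and 0 to 13 with a sample left out. Centring moved the median change of all probe sets at 18 months from −0.06 to 0.00. The causes of these shifts were not tested.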
